A study of Mus musculus with 24 samples.

Results

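The spliceosome proteins whose gene symbols start with Srsf, Hnrnp, Snrp, Sf3a or Sf3b were followed through the stimulation of mouse splenic B cells with antibody to IgM (anti-IgM), which triggers the antigen receptor of these cells. All genes paired with a single symbol of this kind in the probe-to-gene table were taken, after old names were updated by their Entrez identifier, which gave 47 genes of 18193 genes on the array. Each gene was represented by its brightest probe set, a set of short probes for 1 transcript, judged by the mean over the 24 arrays. Of the 47 genes, 45 passed the filter on dim probe sets and were tested among 14318 genes. Genes of these families that the table does not pair with a single symbol, Srsf7 and Snrpa among them, were not analysed here.

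The 24 arrays held 2 genotypes at 4 times, with 3 arrays in each of the 8 groups, which the design text calls biological replicates. The mice were C57BL/6, 6 to 8 weeks old. In the group called KO, exon 3 of Nfatc1, a calcium-regulated transcription factor of lymphocytes, was flanked by loxP sites and removed by a Cre recombinase expressed from Cd79a (mb-1), which is active throughout the B lineage. The group called WT came from control mice. Whether these carried the Cre or the floxed allele, and whether arrays of the same number shared a mouse, is not given in the sources used here, and the treatment text of the WT samples describes NFATc1-deficient cells. Spleen cells were stimulated for 0, 3, 8 or 16 h and enriched for B cells with magnetic beads.

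In the splicing reaction, intron ends are recognised by small nuclear RNA-protein particles. A ring of Sm proteins (the Snrpb, Snrpd, Snrpe, Snrpf and Snrpg products) encircles the RNA of most of these particles, U1 binds the start of the intron, and U2, with its SF3a and SF3b complexes, binds the branch site near its end. SR proteins, which carry stretches rich in arginine and serine, bind exons and promote the use of nearby splice sites, and hnRNP proteins coat nascent RNA and often oppose or modulate them. A resting B cell that is triggered through its receptor leaves quiescence, grows and makes far more RNA and protein.

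Each array gives a level relative to the total signal of that array, so more RNA per cell cannot be seen, and in these bulk samples fewer cells of a type and less RNA per cell cannot be told apart. The 5 probe sets of Nfatc1 were at no time lower on all 3 arrays labelled KO than on all 3 labelled WT; the brightest read 12.06 to 13.95 on the log2 scale in KO and 11.65 to 13.31 in WT. Their place relative to the deleted exon was not analysed here, so they check neither the deletion nor the labels. All 7 B cell markers on the array, Cd79a and Ms4a1 among them, were above the filter level on all 24 arrays. Of the 7 macrophage and monocyte markers, 5 were above it on every array, with a summed signal of 5808 to 13127 in WT at 0 h and 2806 to 5245 at 16 h, and of 5478 to 10331 and 4051 to 10863 in KO. Of 7 T cell markers 1 was. The summed B cell marker signal was 102736 to 116850 in WT at 0 h and 31079 to 37063 at 16 h. The difference between the 3′ and the 5′ Actb control probes, a sign of RNA integrity, was 0.43 to 0.55 at 0 h and 0.55 to 1.08 in the stimulated arrays. The part of these values in the changes with stimulation was not tested. Replicate 2 of KO at 8 and 16 h had the highest background, and the 4 arrays of WT replicate 2 had male-type Xist and Eif2s3y signals while the other 20 did not.

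Most of the splicing genes were higher after stimulation, and few were lower. In WT, limma's moderated test with Benjamini-Hochberg adjustment over all 14318 genes called 26 of 45 higher and 3 lower at 3 h against 0 h. The counts were 25 and 3 after 8 h of stimulation and 28 and 3 after 16 h. Among all genes tested, 17% were called higher and 21.3% lower at 3 h, with 17.7% and 15.7% after 8 h and 20.9% and 18.5% after 16 h. The median change of the 45 genes on the log2 scale was 0.40, 0.45 and 0.73 after 3, 8 and 16 h, beside -0.14, -0.04 and 0.05 for all genes. In KO, 27 genes were called higher and 4 lower at 3 h, where the background was 16.6% and 21.7%. At 8 h the counts were 25 and 4 (17.3% and 14.4%), and at 16 h they were 27 and 3 (19.4% and 16.4%). The comparisons within a genotype share their 0 h arrays. In total 20 genes were called higher in all 6 comparisons, 3 were called lower in all 6, 6 were called in none, and no gene was called in both directions. The same counts were not made over all genes, so they have no background beside them.

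**Figure D1:**
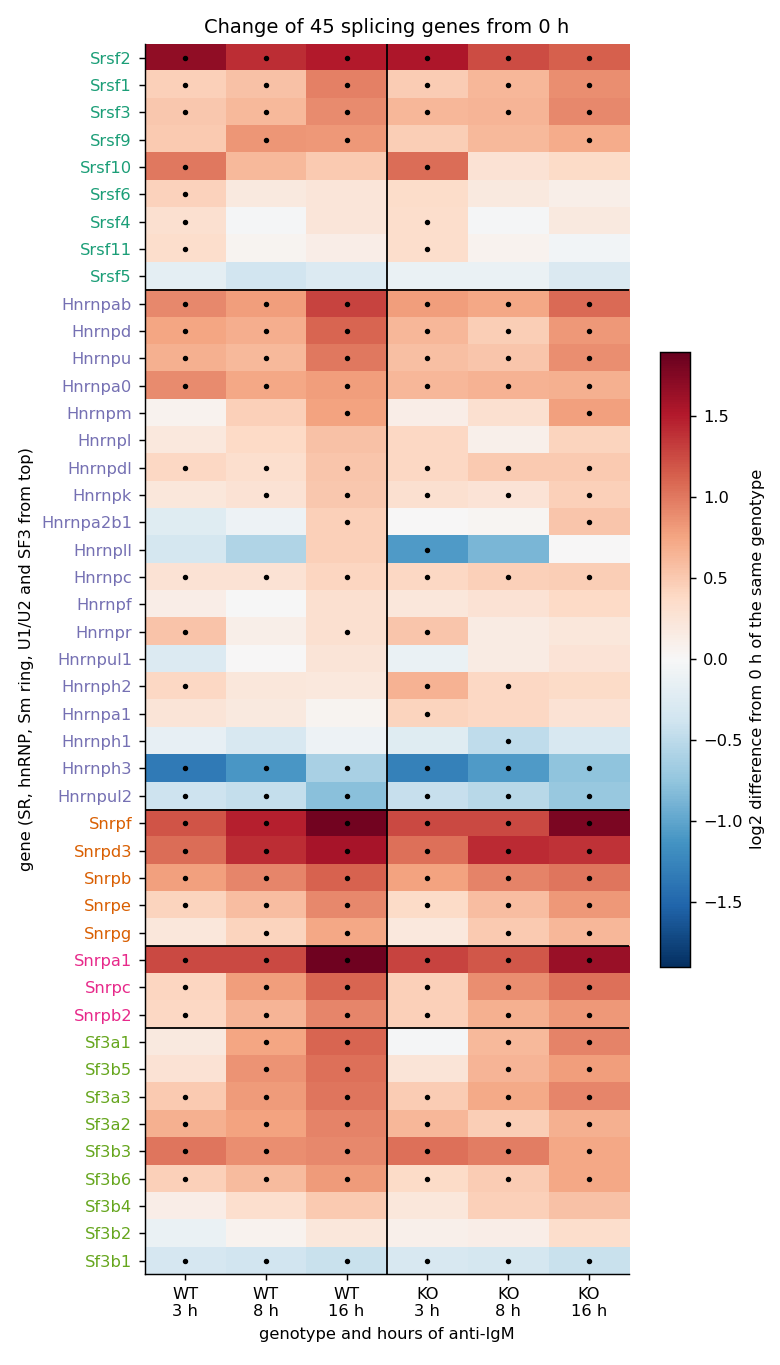
The map shows the log2 difference from 0 h of the same genotype for 45 genes (rows, by role from SR proteins at the top to SF3 proteins at the bottom) at 3, 8 and 16 h in WT and KO (columns); a dot marks adjusted p under 0.05 (limma). All 5 Sm ring and all 3 U1/U2 genes carry dots at 8 and 16 h in both genotypes, and Hnrnph3, Hnrnpul2 and Sf3b1 are the rows that are lower with dots in all 6 columns.

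The deposited arrays had been scaled to a common trimmed mean. Shifting the arrays to a common median instead left 26, 23 and 27 splicing genes higher in WT at 3, 8 and 16 h but 1 lower at each time. Among all genes the share of calls that were higher moved with this choice, from 44.5% to 60.2% at 3 h and from 53.1% to 63.9% at 8 h. The lower calls below, all but Hnrnph3 at 3 and 8 h and Hnrnpul2 at 16 h, therefore depended on the scaling in WT. The counts of higher calls moved as well. Median scaling left 24, 18 and 22 splicing genes higher in KO at 3, 8 and 16 h (2320, 1937 and 2136 of all genes). Quantile normalization left 20, 22 and 25 higher in WT (2641, 2772 and 3358 of all genes). In KO it left 21, 21 and 26 (2569, 2675 and 3145 of all genes).

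Among the 9 SR genes tested, 7 rose at 3 h in WT, 4 at 8 h and 4 at 16 h, and none fell. Srsf2, which encodes an exon-binding SR protein required for the splicing of many transcripts, had the largest change of all 45 genes at 3 h. Its log2 signal in WT was 12.53, 12.57 and 12.63 at 0 h, 14.21, 14.29 and 14.30 after 3 h, 13.92, 14.03 and 13.98 at 8 h, and 14.00, 14.11 and 14.13 at 16 h. Every stimulated array was above every 0 h array, by 1.69 ± 0.10 (SE, n = 3 against 3) at 3 h, a 3.23-fold difference (adjusted p = 7.42e-12, limma). From 3 to 8 h it fell by 0.29 (adjusted p = 0.0489), a step at which 5.57% of all genes were called lower; this call was lost, for example, without WT replicate 1 at 8 h (-0.26, adjusted p = 0.162). In KO the rise was 1.53, 1.24 and 1.14 at the successive times.

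Srsf1 and Srsf3, general splicing activators that also take part in mRNA export, rose at every time in both genotypes. Srsf3 read 13.15, 13.13 and 13.19 at 0 h in WT and 14.03, 14.06 and 14.09 at 16 h, with no overlap, a difference of 0.90 ± 0.08 (adjusted p = 1.61e-09). At 3 h its rise of 0.51 was not called with the mean of its probe sets (0.36, adjusted p = 0.0583). Srsf1 rose by 0.46 at 3 h, where its arrays overlapped with those at 0 h (13.59 to 14.17 against 13.17 to 13.66), and by 0.96 at 16 h.

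For the brightest probe sets of 4 further SR genes the WT calls were confined to the earliest time. Srsf10, Srsf11, Srsf4 and Srsf6 rose at 3 h in WT by 1.00, 0.34, 0.30 and 0.44 and were not called at 8 or 16 h, where their differences from 0 h lay between -0.02 and 0.62. Srsf10, which is a splicing repressor when it is dephosphorylated, read 10.94, 11.08 and 11.61 at 0 h and 11.76, 11.94 and 12.95 at 3 h, so its replicates spread over more than 1 log2 unit at 3 h. A dimmer Srsf10 probe set was called higher in WT at 3, 8 and 16 h (0.99, 0.91 and 0.89, adjusted p = 0.000379, 0.00103 and 0.00105, limma), and its others at none of them. For Srsf11 a dimmer probe set was called lower at 8 and 16 h (-0.88 and -1.05, adjusted p = 0.00202 and 0.00029), and its others at neither. Srsf4 and Srsf11 fell between 3 and 8 h, by 0.33 and 0.29, close to the threshold (adjusted p = 0.0481 and 0.0351). Srsf9 was called at 8 and 16 h in WT (0.84 and 0.82) and was not called at 3 h (0.49, adjusted p = 0.152). Srsf5 was called at no time in either genotype, with differences between -0.37 and -0.12. Of the 9 SR genes, 5 had their highest WT group mean at 3 h and 2 at 16 h. Srsf12, the tenth SR gene, did not pass the filter: its signal was between 0.00 and 5.73 over the 24 arrays.

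**Figure D2:**
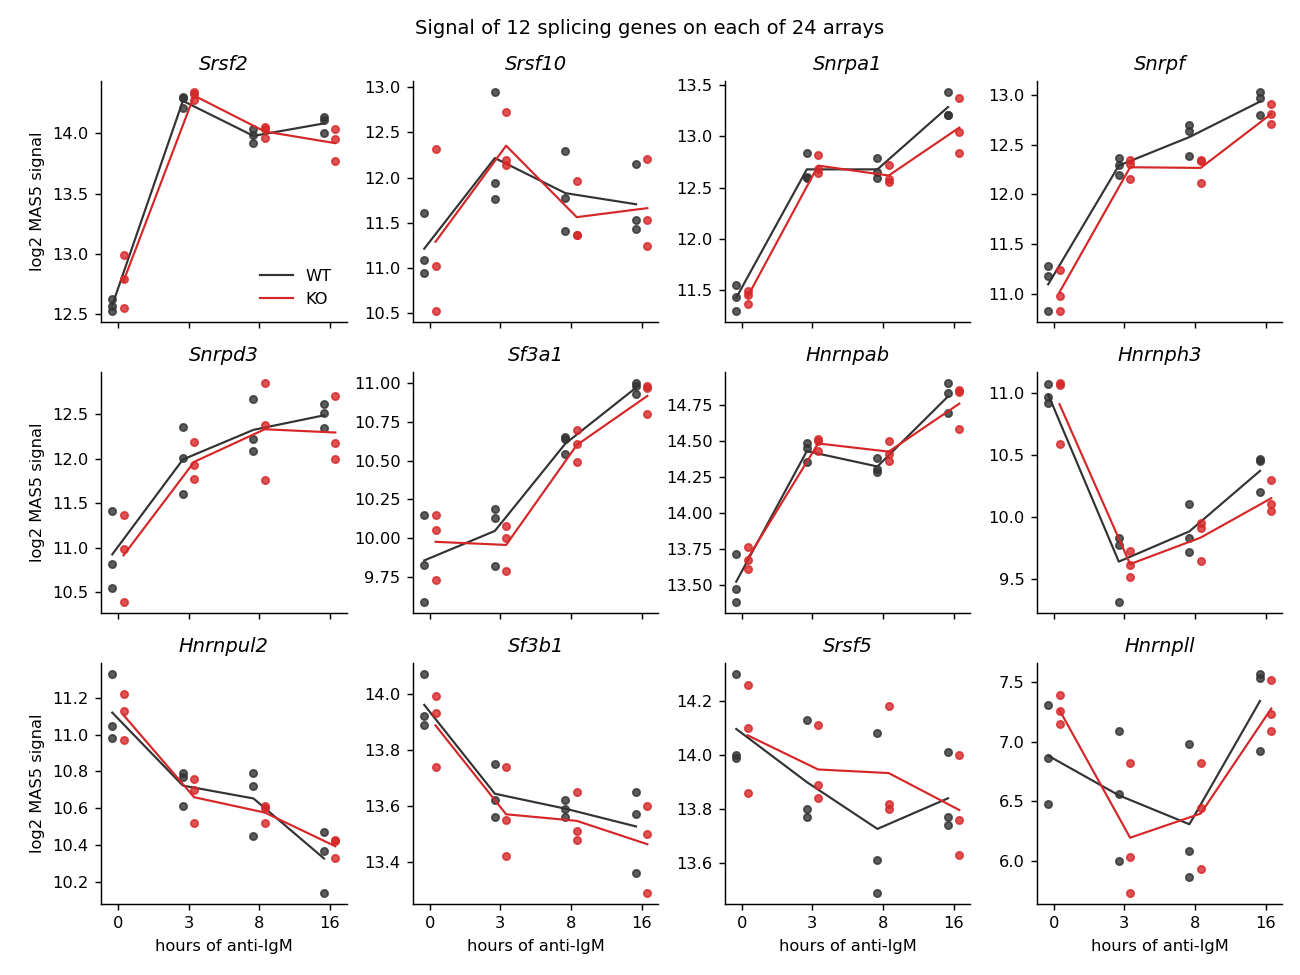
Points are the log2 MAS5 signals of single arrays (3 per genotype and time) and lines join the group means, WT in grey and KO in red, for 12 genes against hours of anti-IgM; each panel has its own vertical axis, which does not start at 0. Srsf2 is 12.53 to 12.63 at 0 h and 14.21 to 14.30 at 3 h in WT, Sf3a1 rises between 3 and 8 h, and Hnrnph3 is lowest at 3 h.

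The Sm ring genes rose in both genotypes, with none lower at any time. At 3 h 4 of the 5 tested were higher in WT, and at 8 and 16 h all 5 were. All 5 had their highest WT mean at 16 h. Snrpf had the largest change: 11.28, 10.83 and 11.18 at 0 h, 12.37, 12.20 and 12.30 at 3 h, 12.64, 12.39 and 12.70 at 8 h, and 12.80, 13.03 and 12.97 at 16 h in WT. No stimulated array reached down to the 0 h arrays, and the difference at 16 h was 1.84 ± 0.13 (adjusted p = 4.37e-11), or 3.57-fold. Snrpd3 rose by 1.06 ± 0.27 at 3 h and 1.56 ± 0.27 at 16 h, with a larger spread: 10.82, 10.54 and 11.41 at 0 h and 12.34, 12.51 and 12.61 at 16 h. Snrpb, which encodes SmB, rose by 0.78, 0.93 and 1.12 at the successive times, and Snrpe by 0.42, 0.59 and 0.92. Snrpg changed least, from 13.84, 13.70 and 13.73 to 14.61, 14.55 and 14.29 at 16 h (0.73, adjusted p = 2.29e-05), and was not called at 3 h. Snrpn, an SmB-like gene best known from brain, did not pass the filter, with signals from 1.58 to 4.72.

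The genes of 3 proteins of the U1 and U2 particles rose at every time in both genotypes. Snrpa1, which encodes the U2 A′ protein, read 11.55, 11.30 and 11.43 in WT at 0 h, 12.84, 12.60 and 12.59 at 3 h, 12.79, 12.59 and 12.65 at 8 h, and 13.43, 13.21 and 13.21 at 16 h. Its difference from 0 h was 1.25 at both 3 and 8 h and it then stepped up by 0.61 (adjusted p = 0.00182), giving the largest 16 h change of the 45 genes, 1.85 ± 0.12 or 3.61-fold (adjusted p = 1.47e-11). Snrpc, the U1-C protein that helps U1 hold the 5′ splice site, rose by 0.41, 0.79 and 1.10 at 3, 8 and 16 h. Snrpb2, the U2 B″ protein, rose by 0.39, 0.64 and 0.93.

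Of the 9 SF3 genes, 4 rose at 3 h in WT and 6 at 8 and at 16 h, and 1 fell at each time. SF3a has 3 subunits, and all of them were higher at 16 h: Sf3a1 by 1.11, Sf3a2 by 0.95 and Sf3a3 by 1.01. Sf3a1 was late. It read 10.15, 9.83 and 9.59 at 0 h and 10.13, 10.19 and 9.82 at 3 h, groups that overlapped, then 10.65, 10.64 and 10.54 at 8 h and 10.98, 11 and 10.93 at 16 h. The step from 3 to 8 h was 0.57 in WT (adjusted p = 0.00671) and 0.65 in KO (adjusted p = 0.0019). Sf3b5, a small SF3b subunit, had the same order of groups: it was not called at 3 h (0.28), stepped up by 0.57 from 3 to 8 h and was 1.05 above 0 h at 16 h. Sf3b3, the large scaffold subunit, was early in its brightest probe set: 11.40, 11.79 and 11.56 at 0 h and 12.68, 12.55 and 12.57 at 3 h, a rise of 1.01 ± 0.12 (adjusted p = 1.89e-07), then 0.89 and 0.92. Its other probe set (mean 11.39) was called at none of these times in WT. It gave 0.53, 0 and -0.22 at 3, 8 and 16 h (adjusted p = 0.0556, 0.993 and 0.479, limma). Sf3b6, the branch site protein p14, rose by 0.46, 0.60 and 0.81. The brightest probe sets of Sf3b2 and Sf3b4 were not called, with WT differences at 16 h of 0.21 and 0.49. Dimmer probe sets of Sf3b2 were called both ways in WT at 16 h. They were 0.38 and 0.32 (adjusted p = 0.00417 and 0.0198, limma) and -1.06 (adjusted p = 0.00658), and the rest were not called.

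Sf3b1, the SF3b subunit that clamps the branch site helix, went the other way. It read 13.89, 14.07 and 13.92 in WT at 0 h and 13.62, 13.75 and 13.56 at 3 h, 13.62, 13.59 and 13.56 at 8 h and 13.57, 13.65 and 13.36 at 16 h. All 9 stimulated arrays were below the 3 at 0 h, by 0.32 to 0.43 on average (adjusted p = 0.0231, 0.0099 and 0.00236). The size is small, and under median scaling the WT values were -0.08, -0.22 and -0.35, with adjusted p = 0.733, 0.311 and 0.0688. Leaving out single arrays also ended the call at 3 h: WT replicate 2 at 0 h (-0.27, adjusted p = 0.107), replicate 1 at 3 h (-0.31, 0.0599) or replicate 3 at 3 h (-0.28, 0.0914); at 8 h, leaving out replicate 2 at 0 h did so (-0.32, 0.0567).

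Among the 19 hnRNP genes changes went both ways. In WT 8 rose and 2 fell at 3 h, 7 rose and 2 fell at 8 h, and 10 rose and 2 fell at 16 h. Hnrnpab, a close relative of hnRNP A and D proteins, had the largest rise: 13.38, 13.47 and 13.71 at 0 h, 14.48, 14.35 and 14.45 at 3 h, 14.28, 14.30 and 14.38 at 8 h and 14.90, 14.83 and 14.69 at 16 h. It was 1.29 ± 0.10 above 0 h at 16 h (adjusted p = 3.69e-10), of which 0.49 came between 8 and 16 h. That step was not called under quantile normalization (0.24, adjusted p = 0.0775) or with the mean of its probe sets (0.26, adjusted p = 0.0732). Hnrnpd, or AUF1, a protein that binds AU-rich elements, rose by 0.75, 0.69 and 1.11, Hnrnpu by 0.68, 0.61 and 1.00 and Hnrnpa0 by 0.90, 0.73 and 0.80. Hnrnpc, which binds uridine tracts, rose by 0.28, 0.28 and 0.41. Hnrnpr was high at 3 h and fell by 0.43 from 3 to 8 h (adjusted p = 0.0077).

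Hnrnpa2b1 and Hnrnpm were called higher than at 0 h only at 16 h. Hnrnpa2b1 read 13.80, 13.81 and 13.87 at 0 h, 13.85, 13.49 and 13.82 at 8 h and 14.28, 14.34 and 14.24 at 16 h in WT, so only the 16 h arrays stood clear of the 0 h arrays on the high side (0.46, adjusted p = 0.00131). This call was lost under quantile normalization (0.19, adjusted p = 0.156) and with the mean of its probe sets (0.09, adjusted p = 0.611). Hnrnpm was 0.06 above 0 h at 3 h and 0.76 at 16 h (adjusted p = 0.00832). Hnrnpa1, one of the most studied splicing repressors, was not called in WT, where its differences were 0.25, 0.19 and 0.05, and was called higher in KO at 3 h (0.42, adjusted p = 0.0418); the difference between the 2 responses was not called. The brightest probe sets of Hnrnpf, Hnrnpl and Hnrnpul1 were called at no time in either genotype. The 3 dimmer ones of Hnrnpf were 0.56, 0.49 and 0.13 in WT at 3 h (adjusted p = 0.00032, 0.000543 and 0.503, limma). At 16 h in WT they were 0.32, 0.36 and 0.44 (adjusted p = 0.0249, 0.00708 and 0.00964), so all 3 were called higher. For Hnrnpl the arrays of 1 group spread widely, 8.01, 8.96 and 9.63 at 3 h in WT.

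Hnrnph3 had the largest fall of the 45 genes. It read 11.07, 10.92 and 10.97 in WT at 0 h, 9.78, 9.32 and 9.83 at 3 h, 9.83, 9.72 and 10.11 at 8 h, and 10.20, 10.47 and 10.45 at 16 h. It was 2.54-fold lower at 3 h (-1.34 ± 0.15, adjusted p = 1.46e-07), and at 16 h the difference was -0.61 with the groups still apart. The KO values were -1.29, -1.07 and -0.76. Its relatives differed from it: Hnrnph1 was called at 8 h in KO alone among the 6 comparisons (-0.48), and Hnrnph2 rose at 3 h in WT (0.40). Hnrnpul2 read 11.05, 10.98 and 11.33 at 0 h and 10.47, 10.37 and 10.14 at 16 h in WT, and its differences from 0 h were -0.39, -0.46 and -0.79 at the 3 times. Its 3 h call was lost without WT replicate 3 at 0 h (-0.29, adjusted p = 0.0844) and without WT replicate 2 at 3 h (-0.34, 0.0558). These values are from its brightest probe set (mean 10.70). Its other probe set (mean 10.41) gave -0.47, -0.25 and 0.02 in WT (adjusted p = 0.0184, 0.249 and 0.952, limma). In KO at 16 h that probe set gave 0.17 (adjusted p = 0.455), so the 16 h fall was seen in the brightest alone. Hnrnpll, whose product silences exons of Cd45 in lymphocytes, was a dim probe set that passed a call at 3 h in KO (-1.07, adjusted p = 0.025) and in no other comparison. It spread from 5.73 to 6.82 on those 3 arrays.

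The members differed in when they were highest. In WT the highest group mean was that of 16 h for 29 of 45, that of 3 h for 10, that of 0 h for 5 and that of 8 h for 1, and among all genes the shares were 33%, 19.1%, 35.3% and 12.6%. In both genotypes 42 of the 45 had the same time of highest mean. Fewer genes were called in the steps between stimulated times than between 0 and 3 h. From 3 to 8 h 8 genes were called in WT, 4 in each direction, where 10.3% of all genes were called higher and 5.57% lower; in KO 6 were called (13.2% and 6.01%). From 8 to 16 h 5 were called in WT and 3 in KO, none lower (3.83% higher and 3.92% lower in WT, 2.4% and 2.26% in KO). With the replicate number as a block, which is not a known pairing, the counts were 16 in WT and 9 in KO from 8 to 16 h and 14 in KO from 3 to 8 h; with genotype and number as a random block they were 15, 6 and 10. Each of the 8 WT calls from 3 to 8 h was lost when 1 or another array was left out, and no step was called under median scaling. With the mean of probe sets, the WT steps from 3 to 8 h of Sf3a1 (0.26, adjusted p = 0.571) and Snrpc (0.04, adjusted p = 0.971) and that of Hnrnpa2b1 from 8 to 16 h (0.02, adjusted p = 0.95) were not called. The step counts depended on single arrays too. Leaving out WT replicate 2 or 3 at 3 h or replicate 1 or 2 at 8 h gave 2, 1, 2 and 4 calls from 3 to 8 h, and leaving out WT replicate 1 at 8 h or replicate 2 or 3 at 16 h gave 3 each from 8 to 16 h. In KO, leaving out replicate 2 or 3 at 3 h or replicate 1 or 3 at 8 h gave 2, 3, 1 and 3 from 3 to 8 h, and leaving out replicate 2 or 3 at 8 h gave 1 each from 8 to 16 h.

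The genotypes were compared to ask whether the loss of NFATc1 altered these levels. No splicing gene was called between arrays labelled KO and WT at 0, 3, 8 or 16 h, averaged over the times, or for a difference in the response to anti-IgM (limma). At an unadjusted p under 0.05 there were 0, 0, 2 and 1 genes at the 4 times (3.49%, 3.71%, 5.43% and 7.08% of all genes) and 1 for the average (9.65%), and no other tool was run. Among all genes the called shares were 0.0349%, 0.0559%, 0.0978% and 0.615% at 0, 3, 8 and 16 h, 1.21% for the average, and 0%, 0% and 0.021% for the response at 3, 8 and 16 h, with 0.014% in the F-test over all 3. A count of 0 among 45 genes is thus near the background. The intervals are more informative. The average KO minus WT difference ranged from -0.13 to 0.12 over the 45 genes, and its 95% interval lay within 1.3-fold either way for 41 of them and within 1.5-fold for all 45. The 4 wider ones were Hnrnpl, Hnrnpll, Srsf10 and Srsf9. These intervals treat the 12 arrays of a genotype as independent. Arrays of the same number within a genotype were correlated (consensus correlation 0.208), so the intervals may be too narrow. They do not show that the genotypes were equal. At 0, 3, 8 and 16 h the KO minus WT difference was above 0 for 22, 29, 24 and 13 of the 45 genes. Among all 14318 genes it was above 0 for 7590, 7424, 7937 and 7344. The median at 16 h was -0.06 for the 45 genes and 0.01 for all genes. This lean at 16 h was not tested. The summed neutrophil marker signal differed between genotypes at 0 h, 1941 to 2944 in WT and 191.0 to 1759 in KO, and its part in these values was not tested.

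**Figure D3:**
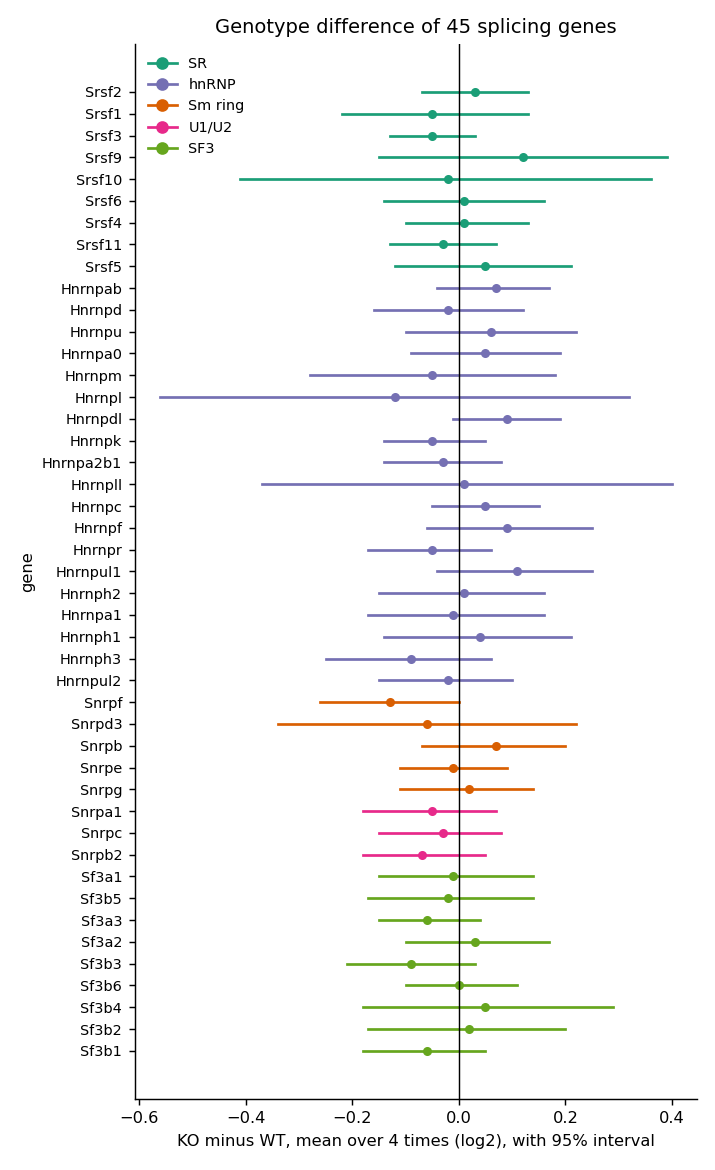
Points give the KO minus WT difference averaged over 4 times on the log2 scale and bars its 95% interval from the fit over 24 arrays, for 45 genes coloured by role. All points lie between -0.13 and 0.12, and Hnrnpl has the widest interval, from -0.56 to 0.32.

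The genes nearest to a call had small differences. The average KO minus WT difference of Snrpf was -0.13 (95% interval -0.26 to 0.00, adjusted p = 0.506). At 8 h it read 12.34, 12.35 and 12.11 in KO and 12.64, 12.39 and 12.70 in WT, groups that did not overlap (-0.31, adjusted p = 0.762). It was 0.09 for Hnrnpdl (adjusted p = 0.623) and -0.09 for Sf3b3 (adjusted p = 0.737). At 16 h the smallest p-values were those of Sf3b3, with 12.47, 12 and 12.29 in KO and 12.49, 12.35 and 12.67 in WT (-0.25, adjusted p = 0.678), Srsf11 (-0.17, adjusted p = 0.855) and Snrpa1 (-0.20, adjusted p = 0.88). For the response over all times, Srsf2, Sf3a2 and Snrpf came first in the F-test, each with adjusted p = 1.

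Many of these genes have several probe sets, and these need not report the same transcripts. Of the 45 genes 35 had more than 1, and in WT the brightest was called for 23, 23 and 25 of them at 3, 8 and 16 h. For 15, 16 and 16 of those, every other probe set had the same sign, and for 2, 0 and 2 another probe set was called the opposite way. For Srsf3 a dimmer probe set changed by -1.19 at 3 h and by -1.81 at 16 h, where the brightest was higher. For Hnrnpa2b1 another changed by -0.44 at 16 h, and for Hnrnpdl another changed by -0.61 at 3 h. Several of these genes are known to make alternative transcripts that are degraded when they hold a poison exon; which transcripts these probe sets detect was not analysed here. The 3 probe sets of Snrpa1 gave 1.85, 1.66 and 1.96 at 16 h, and those of Srsf2 gave 1.5, 1.07, 1.29 and 0.33. Of the 45 brightest probe sets 7 have names ending in s_at and 3 in x_at, marks of probes that can match more than 1 transcript or share sequence with others.

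**Figure D4:**
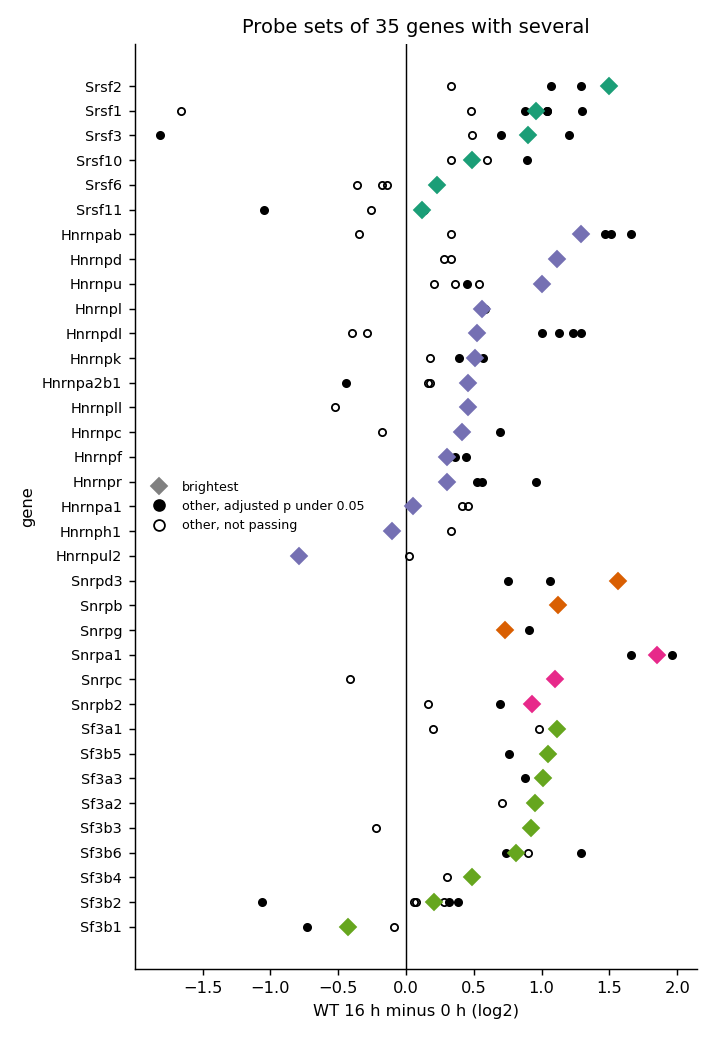
Each row is 1 of 35 genes with several probe sets and the horizontal axis is the log2 difference between 16 h and 0 h in WT; the coloured diamond is the brightest probe set, filled circles are others with adjusted p under 0.05 and open circles are the rest, some of them hidden under a diamond. The Srsf3 row has a filled circle at -1.81 opposite to its diamond at 0.90.

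For 9 of the 45 genes (20%) the same array number was the highest of the 3 arrays in all 8 groups. Among all genes the share was 4.04%, counting any of the 3 numbers. In all 9 genes that number was 3. They were Hnrnph1, Hnrnph2, Hnrnpl, Sf3b2, Snrpd3, Srsf10, Srsf5, Srsf6 and Srsf9, which were picked out after their values were seen. Srsf10 and Snrpd3, above, show it: the third value is the highest at each time. What the arrays of one number share is not given in the sources used here.

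Other genes of the splicing pathway, 121 genes from a fixed list, were counted in the same fit: 53 rose and 14 fell at 3 h in WT, and 65 rose and 16 fell at 16 h. Their median change was 0.29 and 0.41, and none was called between genotypes on average. In a list on the assembly, cap binding and transport of these particles, which holds the SMN complex, Prmt5 and its partners, Coil, Tgs1, Phax, Ncbp1, Ncbp2, Snupn and Tnpo3, 13 of 17 rose at 3 h and 15 of 17 at 16 h, with none lower. Gemin5, the subunit of the SMN complex that reads the small nuclear RNA, rose by 1.95 at 3 h; Prmt5, which methylates Sm proteins, by 1.70 and 1.60 at 3 and 16 h; and Wdr77, its partner, by 1.66 at 16 h. In the U4/U6.U5 and minor particles 14 of 24 rose and 1 fell at 3 h, and 19 rose and 1 fell at 16 h. Lsm2, a ring protein of U6, rose by 2.03 at 16 h, whereas Snrnp25, of the minor particle, fell by 1.11 at 3 h. Among the SR-like proteins and SR protein kinases 5 of 14 rose and 4 fell at 3 h, and 3 rose and 4 fell at 16 h. Clk1 and Clk4, kinases that release SR proteins from nuclear speckles, fell by 1.18 and 1.41 at 16 h. Rbm39, an SR-like coactivator, fell by 1.06 at 3 h and 1.66 at 16 h, and Syncrip, an hnRNP Q protein, rose by 1.45 at 3 h.

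**Figure D5:**
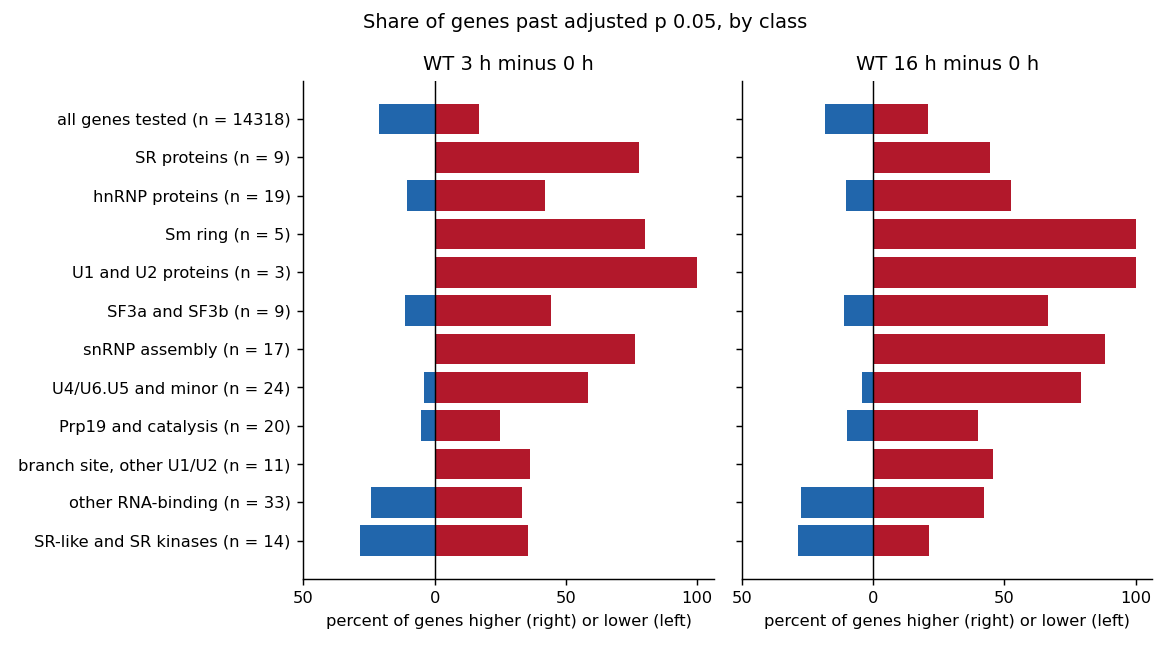
Bars give the percent of genes called higher (right, red) and lower (left, blue) in WT at 3 h and 16 h against 0 h, for all genes tested, the 5 role classes and 6 lists of other splicing genes, with the number tested beside each. All 5 Sm ring and all 3 U1/U2 genes are higher at 16 h, beside 20.9% of all genes.

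Rises of this kind were not particular to splicing genes. At 16 h in WT 37 of 42 proteasome genes rose and 3 fell, with a median change of 1.28. Of 76 mitochondrial ribosome genes 70 rose and none fell (median 1.08), and of 46 translation initiation factor genes 33 rose and 2 fell (median 0.85).

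The DNA before the start sites was searched for 4 motifs in RefSeq promoter windows of 300 bases (250 before to 50 after the start, GRCm38.p6). Of the 47 genes 42 had a window, 58 windows in all, some of which belong to 1 gene and overlap. On either strand, the ETS motif CCGGAAG was in 34.5% of these windows, in 15.2% of the 14642 windows of tested genes and in 8.86% of all 32851 windows. The NF-Y motif ATTGGCT was in 13.8%, 9.96% and 7.86%, the NFAT core GGAAAA in 12.1%, 20.7% and 23.4%, and the E-box CACGTG in 6.9%, 9.27% and 7.15%. The share among tested genes was added after the first counts were seen. By role, the ETS motif was in a window of 6 of 7 SF3 genes, 3 of 10 SR genes, 2 of 5 Sm ring genes, 2 of 3 U1/U2 genes and 2 of 17 hnRNP genes. A match is an exact run of these letters and not a shown binding site, and no test was made. Other spellings of a motif were not searched, so a stretch without a match can still hold one.

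Below are the 120 bases before the start of 8 genes that rose, 5' to 3' on the gene's strand, with matches of the ETS motif in capitals (CTTCCGG is the motif on the other strand). They show what such windows look like and do not represent the members: a first set of genes with large changes held none of the 4 motifs, and genes with an ETS match were added after the matches were seen. Snrpc, Snrpb2, Sf3a2, Sf3a3 and Sf3b6 hold the motif here, and Srsf2, Snrpa1 and Snrpf, with larger rises, hold none of the 4 motifs in this stretch. The start used for Srsf2 and for Snrpc lies inside the annotated gene span and not at its outer end.
Snrpc, chr17:27839967-27840086, plus strand: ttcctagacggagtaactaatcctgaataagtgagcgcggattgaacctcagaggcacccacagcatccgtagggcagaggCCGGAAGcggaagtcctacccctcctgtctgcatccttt
Snrpb2, chr2:143062949-143063068, plus strand: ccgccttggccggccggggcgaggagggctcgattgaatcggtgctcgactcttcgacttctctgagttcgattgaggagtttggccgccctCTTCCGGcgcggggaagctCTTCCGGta
Sf3a2, chr10:80798615-80798734, plus strand: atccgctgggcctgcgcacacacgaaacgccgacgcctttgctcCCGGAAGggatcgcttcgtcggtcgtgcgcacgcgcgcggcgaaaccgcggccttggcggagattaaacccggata
Sf3a3, chr4:124714741-124714860, plus strand: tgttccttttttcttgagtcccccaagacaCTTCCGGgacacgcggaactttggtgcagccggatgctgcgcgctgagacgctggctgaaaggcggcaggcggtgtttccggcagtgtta
Sf3b6, chr12:4817488-4817607, plus strand: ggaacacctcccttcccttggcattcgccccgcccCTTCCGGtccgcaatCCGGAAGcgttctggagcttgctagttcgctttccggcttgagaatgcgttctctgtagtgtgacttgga
Srsf2, chr11:116853095-116853214, minus strand: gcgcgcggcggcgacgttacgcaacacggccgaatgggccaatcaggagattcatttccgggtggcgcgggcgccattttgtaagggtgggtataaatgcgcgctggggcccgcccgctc
Snrpa1, chr7:66060216-66060335, plus strand: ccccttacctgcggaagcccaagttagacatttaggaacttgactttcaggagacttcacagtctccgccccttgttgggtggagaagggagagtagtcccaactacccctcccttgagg
Snrpf, chr10:93589659-93589778, minus strand: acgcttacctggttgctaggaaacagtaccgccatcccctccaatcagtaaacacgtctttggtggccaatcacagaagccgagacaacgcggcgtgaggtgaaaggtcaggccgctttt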

How the data were processed

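RNA of 24 samples was hybridised to Affymetrix expression arrays. The values were deposited as log2 signals; per the submitters' processing notes they were made with MAS5, whose version is not given in the sources used here, and every array has the same trimmed mean, 500.01 on the linear scale without the top and bottom 2%. MAS5 summarises each probe set on each array alone, so low signals are noisy. Arrays have no read depth; precision is limited by how many arrays there are. The deposited log2 values were used unchanged. Probe sets above the 40th percentile of their own array on at least 3 arrays were kept, and the brightest probe set of each gene was used. A model with 1 mean per group over all 24 arrays was fitted with limma 3.58.1 in R 4.3.3 (eBayes with trend), p-values were Benjamini-Hochberg adjusted over 14318 genes, and adjusted p under 0.05 was called. The test was run on simulated data first.

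Gene names came from the platform annotation of 45101 probe sets, of which 34945 have 1 symbol, 34741 of them updated by Entrez identifier, and 932 have several. Members and lists were chosen with earlier results of these data known. Genes were named by a rule: any called between genotypes or otherwise the 3 nearest, the 5 highest and 5 lowest called at each WT time and 3 each for the steps, the largest and smallest 16 h change of each class, and genes with opposed probe sets; for other pathway genes, the 3 highest and lowest at 3 and 16 h. Other members named give the rest of each class. Arrays of the same number in 1 genotype correlated in their deviations from group means by 0.02 to 0.374, over 0.1 in 16 of 36 pairs. For different numbers in 1 genotype the range was -0.342 to 0.099, over 0.1 in 0 of 72 pairs. The main fit did not treat the numbers as pairs, because what they share is not given. Anything that arrays of the same number share is therefore ignored in that fit. Alternatives covered scaling, filter, probe sets, replicate block, samples fitted, prior, low signals and each array left out. Figures were drawn with matplotlib 3.10.9. Protein sequences were not analysed here.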

Additional observations from a re-analysis of the deposited data

How the results depend on the processing

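No member was called between genotypes, or for a different response, under any alternative run; the fit of only the groups compared gives no averaged or F-test value, and 3 genotype-and-number means against 3 were run for the average alone. The counts in this section are of members alone. Calls among all genes were counted only against 0 h under the other scalings, so the other counts have no background beside them. Requiring a 1.5-fold change left 12 genes higher and 1 lower in WT at 3 h, 1 lower in WT at 8 h, 13 higher and 2 lower in KO at 3 h, and 15 higher and 1 lower in KO at 8 h. Median scaling left 1 lower in WT at 3, 8 and 16 h and in KO at 3 and 8 h, and 0 in all 4 steps between stimulated times; it moved the median of all genes by 0.24, 0.16 and 0.09 in WT at 3, 8 and 16 h. Quantile normalization gave 6 lower in KO at 16 h and 3 in the WT step from 8 to 16 h. With the replicate block, which is not a known pairing, there were 5 lower in WT at 8 h and 5 in KO at 16 h, and 16, 14 and 9 calls in the WT 8 to 16 h, KO 3 to 8 h and KO 8 to 16 h steps; as a random block (consensus correlation 0.208) these steps had 15, 10 and 6. All 24 arrays correlated best with their own number within their genotype. The WT 3 to 8 h step (8 calls) had 5 with no filter, 3 with the mean of probe sets, 5 with no trend, 2 with only the groups compared and 3 when the 4 male-type arrays were left out. The WT 8 to 16 h step had 3 with the mean of probe sets, 3 with only the groups compared and 1 without those 4 arrays, and the KO 3 to 8 h step had 3 without them. The KO 8 to 16 h step had 5 with the filter at the 60th percentile, 0 with only the groups compared and 1 without the 2 arrays of highest background; leaving out these 2 or 4 arrays was chosen after seeing the data. Averaging its probe sets turned Srsf11 at 16 h in WT to -0.26 (adjusted p = 0.0499).

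Leaving out each array in turn gave 20 to 26 genes higher and 2 to 3 lower in WT at 3 h, 21 to 25 and 2 to 4 at 8 h, and 27 to 28 and 3 at 16 h. In KO it gave 23 to 28 and 2 to 4 at 3 h, 22 to 25 and 2 to 4 at 8 h, and 25 to 29 and 3 at 16 h; 2 lower remained at 3 h without KO replicate 1 or 2 at 0 h or 1 or 3 at 3 h, and at 8 h without replicate 1 at 0 h or 8 h. The steps had 1 to 8 (WT 3 to 8 h), 3 to 6 (WT 8 to 16 h), 1 to 7 (KO 3 to 8 h) and 1 to 4 (KO 8 to 16 h). Of 49 values of named genes, 31 stayed on the same side of the threshold in every setting, and those of them that were called kept their direction. A change of sign in a value that was not called was not counted. The causes of these moves were not tested. With 3 arrays a group, the median half-width of the 95% interval of a change was 0.27 for the members.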
